A study of Mus musculus with 17 samples.

Results

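Tip cell markers are genes whose expression marks the endothelial cells that lead a growing vessel sprout. The 6 described here, taken by symbol from outside the VEGF and angiopoietin families, are Apln, Aplnr, Esm1, Kcne3, Trp53i11 and Cxcr4. All 6 were found among the 49585 genes of each count table, and all 6 passed the main filter on low counts at both times and over all libraries. They were measured in endothelial cells sorted from mouse bone marrow, after loss of Eng, the gene of the TGF-beta family co-receptor Endoglin. KO animals were of the line Cdh5:CreERT2-Eng f/f: a tamoxifen-activated Cre recombinase under the endothelial Cdh5 promoter acts on an Eng allele with loxP sites around exons 5 and 6. Animals of both genotypes are labelled as injected with tamoxifen, which the design text places at 8 weeks of age, and cells were taken 2 or 4 weeks later. The labels do not state whether the wild-type (WT) animals carried the Cre transgene or the floxed allele. Of the 8 libraries taken at 2 weeks, WT and KO each supplied 4, split evenly between the sexes. Of the 9 taken at 4 weeks, 5 were WT, with 2 from females, and 4 were KO, with 1 from a female. The labels give a sex for each library but do not say that each is 1 animal, so p-values measure the spread between these libraries.

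In a sprout, the tip cell extends filopodia towards VEGF and signals through Notch ligands to the stalk cells behind it, which then hold back from the tip state. Apelin, the peptide encoded by Apln, is made by tip cells and is bound by the G protein-coupled receptor encoded by Aplnr, found on other endothelial cells, venous ones among them. Adult marrow endothelium, from which the cells studied here were sorted, is made up mostly of sinusoids and arterioles. Per the labels' protocols the sort kept CD31+ Sca1+ cells, while the design text gives the gate without Sca1.

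Apln lies on the X chromosome, at chrX:48025146-48034853 on the minus strand of GRCm38, with 3 exonic blocks and no overlapping gene. Its upstream sequence is shown because Apln had the smallest p of the 6 genes between genotypes at 4 weeks. The line gives the 250 bases before the transcription start of RefSeq (assembly GRCm38.p6), chrX:48034854-48035103, minus strand, written in the direction of the gene. Capitals mark each match to GGAAG or its reverse complement CTTCC (the core bound by ETS factors) and to CAGAC or its reverse complement (a SMAD half-site).
Apln upstream: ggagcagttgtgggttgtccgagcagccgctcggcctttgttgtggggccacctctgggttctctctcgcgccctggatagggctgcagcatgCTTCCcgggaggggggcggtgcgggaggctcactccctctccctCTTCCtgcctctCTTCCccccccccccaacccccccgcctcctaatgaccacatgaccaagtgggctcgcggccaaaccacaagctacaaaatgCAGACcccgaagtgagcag
The window held 3 matches to GGAAG, 157, 113 and 101 bases before the start and all on the opposite strand, and 1 match to CAGAC, 19 bases before the start on the gene's own strand. Of 32851 upstream windows of the same length, 64.07% held GGAAG and 42.19% held CAGAC on either strand, so both are common letters. No match was found to ACGTG or GCGTG, used as cores of hypoxia-inducible factors, held by 16.57% and 28.16% of windows, nor to GGCGCC, a BMP SMAD element held by 9.586%. The GC content of the window was 65.2%.

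Total counts were 26705337 to 40882715 per library at 2 weeks and 20477400 to 33726630 at 4 weeks. The time points stood apart in complexity, with 10886 to 13583 genes detected at 2 weeks against 15996 to 21235 at 4 weeks, and with 22.18% to 29.48% against 4.66% to 8.99% of counts from mitochondrial genes. Eng, counted over the whole gene, was at 704.7 to 1307 CPM (a gene's count scaled to the total of its library) in WT libraries and 225 to 347 in KO libraries at 2 weeks. At 4 weeks it was at 2399.8 to 2735 CPM in WT, and at 874, 322, 1647 and 274 in the KO libraries f2, m1, m2 and m3. The library labelled 4-week KO male m2 thus kept 63.67% of the WT mean, though no KO library overlapped WT. All 10 endothelial markers listed, Pecam1 (CD31) and Cdh5 among them, were above the detection floor of 3 counts in every library. Their sum was 4622 to 6262 CPM (median 4883) in WT against 3778 to 4623 (median 4579) in KO at 2 weeks. There the groups overlapped only through KO f1 at 4623.2 and WT m2 at 4621.8 CPM. At 4 weeks the sum was 10496 to 12525 (median 11636) in WT against 9701 to 11921 (median 10594) in KO, with overlap. In 2 of the 2-week KO libraries, males m2 and m3, 10 neutrophil markers summed to 4118 and 3181 CPM, against 22.65 to 237.6 in the other 6 libraries at that time.

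Among the 6 genes, the apelin ligand and its receptor had the smallest p-values between genotypes, with opposite signs at both times. The mean CPM of Apln in KO was 4.16 times that of WT at 2 weeks and 2.17 times at 4 weeks. Mean Aplnr was 0.606 times the WT mean at 2 weeks and 0.585 times at 4 weeks. Neither passed the adjusted threshold of 0.05 in edgeR, where none of the 6 genes was called at either time; the background share called was 0% of 10477 genes at 2 weeks and 0% of 15209 at 4 weeks. In these bulk samples, fewer cells of a type and less RNA per cell cannot be told apart.

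Apln at 2 weeks was at 0, 5.31, 65.9 and 24.6 CPM in the WT libraries f1, f4, m2 and m3, the lowest value being 0 of 37993423 counts. In KO it was at 150, 73.2, 55.6 and 120 CPM in the libraries with the same labels. The KO values lay above all but 1 of the WT values, and the groups overlapped only through WT m2 and KO m2. At 4 weeks Apln was at 62.7, 51.1, 42.9, 90.3 and 113 CPM in the WT libraries f, f3, m1, m2 and m3. The KO libraries f2, m1, m2 and m3 were at 174, 102, 142 and 206 CPM, so that only WT m3 and KO m1 crossed. Group means were 23.9 ± 29.9 CPM (SD, n = 4) in WT and 99.6 ± 43.2 (SD, n = 4) in KO at 2 weeks. At 4 weeks they were 72.0 ± 29.1 (SD, n = 5) and 156 ± 44.6 (SD, n = 4).

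The fitted KO effect on Apln at 4 weeks was a log2 fold change of 1.13 (SE 0.32), with an unadjusted p of 0.00712 that ranked 39 of 15209 genes and an edgeR adjusted p of 0.9997. At 2 weeks the effect was 3.20 with a wide SE of 1.93 and its unadjusted p was 0.142. It was 2.06 without the sex term, 5.38 without the KO males m2 and m3, and 2.11 to 4.18 with 1 library left out, so its size is poorly fixed. Fitted over all 17 libraries, the mean of both KO effects was 1.80 (SE 0.78), with an unadjusted p of 0.0361 and an edgeR adjusted p of 0.410. That unadjusted p was under 0.05 in 15 of 24 alternatives. It was over 0.05 with a replicate block and without any 1 of WT f4 or m3 or KO f1 or m3 of 2 weeks, or WT f3 or m1 or KO f2 or m3 of 4 weeks, reaching 0.0796 without the 2-week WT f4. The effects at 4 and 2 weeks differed by −1.38 (SE 1.56), less than the error of that difference. Without the 4-week KO female f2 the 4-week effect was 0.89, with an unadjusted p of 0.0571. Within sex, mean Apln in KO at 4 weeks was 3.06 times WT in the 1 KO female against 2 WT females and 1.83 times WT in males, where the values overlapped. At 2 weeks the males stood at a ratio of 1.94 with overlap. The 2 WT females, at 0 and 5.31 CPM, had a mean of 2.65 CPM against 112 in the 2 KO females, without overlap. That female ratio of 42.1 rests on the low WT mean.

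Aplnr lies at chr2:85136225-85139923 on the plus strand of GRCm38, a gene of 1 exonic block with no overlapping neighbour. At 2 weeks it was at 271, 288, 350 and 478 CPM in WT f1, f4, m2 and m3, and at 182, 206, 230 and 223 CPM in KO f1, f4, m2 and m3. All KO libraries lay below all WT libraries, a separation in the lower direction found for 1.78% of genes tested at 2 weeks. At 4 weeks the WT libraries f, f3, m1, m2 and m3 were at 629, 446, 527, 831 and 572 CPM. The KO libraries f2, m1, m2 and m3 were at 320, 464, 164 and 457 CPM. Here WT f3 fell between KO f2 and the 2 KO males m1 and m3, so the groups overlapped in CPM by that 1 library. With TMM scaling, as used in the tests, they did not overlap. The lowest value of all 17 libraries, 164 CPM, was that of KO male m2, the KO library with the most Eng.

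Means of Aplnr were 347 ± 93.7 CPM (SD, n = 4) in WT and 210 ± 21.4 (SD, n = 4) in KO at 2 weeks, and 601 ± 145 (SD, n = 5) and 351 ± 142 (SD, n = 4) at 4 weeks. The fitted log2 fold change was −0.70 (SE 0.17) at 2 weeks, with an unadjusted p of 0.00397 that ranked 34 of 10477 genes and an edgeR adjusted p of 1. At 4 weeks it was −0.77 (SE 0.31), with an unadjusted p of 0.0364 and an edgeR adjusted p of 0.9997. The unadjusted p at 4 weeks was under 0.05 in 12 of 16 alternatives. It was over 0.05 with a replicate block and without any 1 of WT f, WT m2 or KO f2, and highest, at 0.0943, without WT m2. The mean effect over both times was −0.74 (SE 0.19), with an unadjusted p of 0.00177 and an edgeR adjusted p of 0.239. DESeq2, run on the same genes, called Aplnr at 2 weeks and for the mean effect, with adjusted p of 0.00992 and 0.00482, but not at 4 weeks, where its adjusted p was 0.630. DESeq2 called 149 genes at 2 weeks and 1396 for the mean effect, where edgeR called 0 and 13. The effects at both times were close in size, with a difference of −0.09 (SE 0.39). Within each sex at each time, in groups of 1 to 3 libraries, the WT over KO ratio of the means was 1.44 to 1.83. Without the 2-week KO males m2 and m3, whose neutrophil markers were high, the 2-week effect was −0.56 with an unadjusted p of 0.0930.

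**Figure D1:**
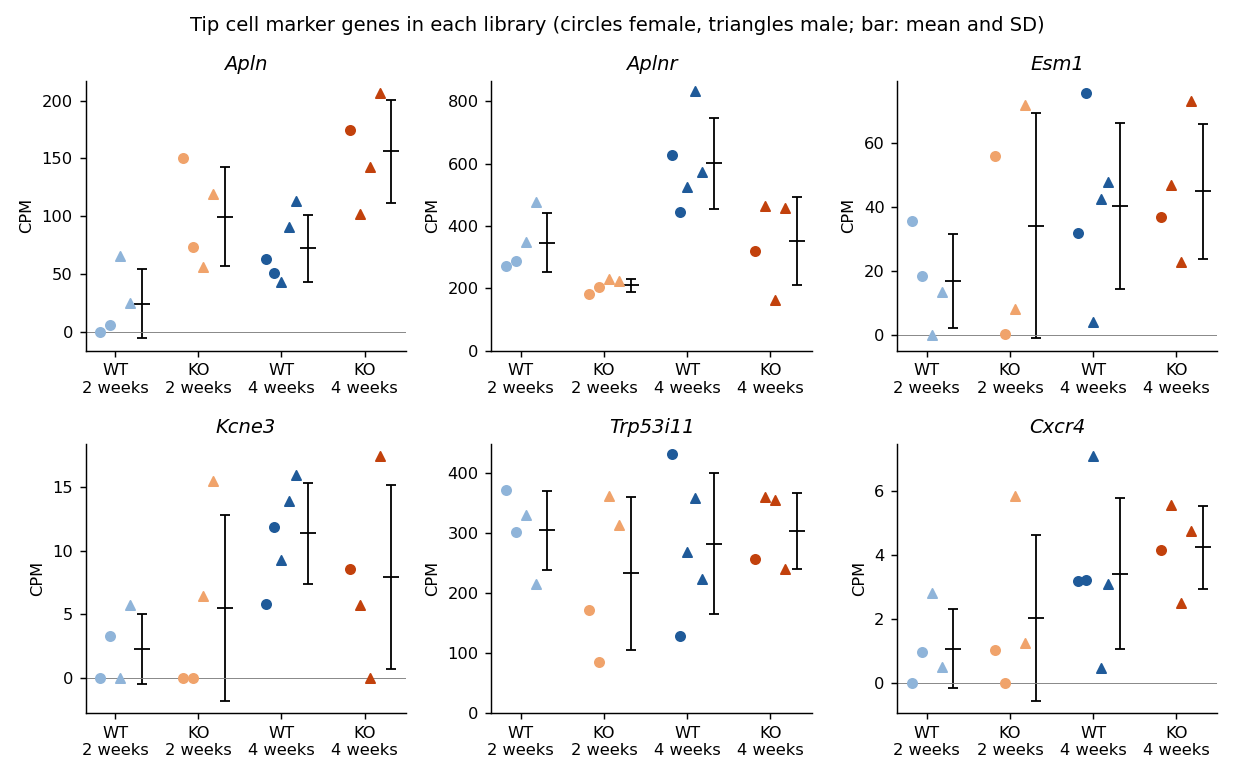
Level of each of the 6 tip cell marker genes in CPM (vertical axis) in the 17 libraries, by genotype and weeks after tamoxifen; circles are females, triangles males, and bars show the mean and SD of a group. The KO values of Apln lie mostly above and those of Aplnr mostly below the WT values of the same time. The genotypes overlap at both times for Apln and the other 4 genes, and at 4 weeks for Aplnr.

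The unadjusted p was under 0.05 for 1 of the 6 genes at 2 weeks (Aplnr, lower) and for 2 at 4 weeks (Apln higher, Aplnr lower). Over all genes tested this share was 2.63% at 2 weeks, with 1.47% lower, and 2.77% at 4 weeks, with 1.30% higher and 1.47% lower. For the mean effect it was 2 of the 6 genes, Apln higher and Aplnr lower, against 11.0% of all genes, of which 5.40% were higher and 5.58% lower. For that effect 0 of the 6 were called, against a background of 0.0828%. For the difference between the times it was 0 of 6, against 9.81% of all genes, and 0 of 6 were called against 0.0764%. The median log2 fold change of the 6 was 0.03 at 2 weeks and 0.20 at 4 weeks, beside −0.06 and 0.01 over all genes.

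The ratio of ligand to receptor within a library does not depend on the library total. Taken per kilobase of exon, Apln over Aplnr was 0, 0.0216, 0.221 and 0.0604 in the 2-week WT libraries f1, f4, m2 and m3. It was 0.971, 0.418, 0.284 and 0.631 in the KO libraries of the same labels. At 4 weeks the 5 WT libraries lay between 0.0957 and 0.232, and the KO libraries f2, m1, m2 and m3 were at 0.639, 0.258, 1.02 and 0.531. Every KO ratio was above every WT ratio of the same time. The group means were 0.0758 ± 0.100 (SD, n = 4) in WT and 0.576 ± 0.300 (SD, n = 4) in KO at 2 weeks, and 0.141 ± 0.0528 (SD, n = 5) and 0.613 ± 0.317 (SD, n = 4) at 4 weeks. This ratio was chosen after the values of both genes had been seen, so it is given as a description with no test.

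**Figure D2:**
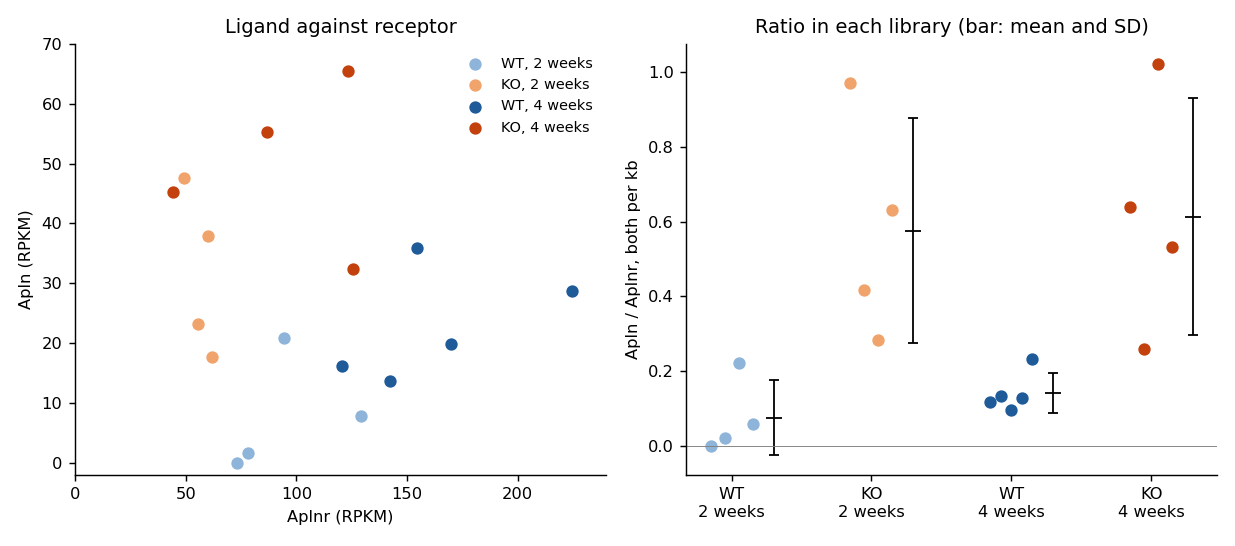
Left, Apln against Aplnr, both in RPKM, 1 point per library; right, their ratio in each library by group, with mean and SD. At both times the KO ratios (0.258 to 1.02) lie above the WT ratios (0 to 0.232).

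Markers of other marrow cells are given beside the apelin pair as summed levels, which were not tested. Erythroid sums and macrophage and monocyte sums lay higher in every KO than in every WT library at 2 weeks and overlapped at 4 weeks, and neutrophil sums overlapped at both times. The sums of the B cell, T and NK cell, megakaryocyte, stem and progenitor, and stromal lists also overlapped at both times. Of the single marker genes none passed the adjusted threshold for a KO effect in edgeR, where the smallest adjusted p was 1 at 2 weeks, 0.9997 at 4 weeks and 0.0715 for the mean effect. By unadjusted p, however, some stood beside the apelin pair; the genes named here were chosen after their values were seen. At 2 weeks the haemoglobin gene Hbb-bs was at a log2 fold change of 2.12 (SE 0.48), with an unadjusted p of 0.00332 and rank 30, and the neutrophil gene S100a8 at 4.11 (SE 0.97), with 0.004025 and rank 35, where Aplnr had rank 34. At 4 weeks the erythroid genes Alas2 and Hba-a2 were at 1.99 (SE 0.65) and 1.62 (SE 0.64), with unadjusted edgeR p of 0.0139 and 0.0320. The stromal genes Col1a1 and Lepr were at −1.26 (SE 0.48) and −0.90 (SE 0.37), with 0.0277 and 0.0400, where Aplnr had 0.0364. For the mean effect S100a8 was at 2.52 (SE 0.57), with an unadjusted p of 5.46e-04, and Hba-a2 at 1.98 (SE 0.48), with 0.00108. The KO effect on the macrophage gene C1qb, at 0 in 2-week KO libraries, was higher at 4 weeks by 11.95 (SE 1.80), with an edgeR adjusted p of 0.0423. Signs were mixed within that list. Cd68 differed by 7.58 (SE 3.29), whereas Mrc1 and Adgre1 differed by −9.56 (SE 3.69) and −11.7 (SE 5.03). Their edgeR adjusted p were 0.477, 0.438 and 0.471. The summed level of 9 erythroid markers was 61.5 to 233 CPM in WT against 278 to 1251 in KO at 2 weeks. At 4 weeks it was 172 to 1303 in WT against 621 to 2916 in KO. Klf1 and Slc4a1 were at 0 in all 2-week WT libraries and Klf1 in all 2-week KO libraries, while none of the 9 was at 0 throughout a 4-week group. The 10 macrophage and monocyte markers at 2 weeks summed to 19.9 to 72.4 CPM over the WT libraries and to 91.2 to 395 over the KO libraries, with Adgre1, Mrc1 and Ccr2 at 0 in WT and Cd68, C1qb and Ccr2 at 0 in KO. At 4 weeks their sums overlapped, at 122 to 216 and 143 to 249 CPM, with Ccr2 at 0. The 10 neutrophil markers at 2 weeks summed to 22.65 to 110 CPM over the WT libraries and to 106.9 to 4118 over the KO libraries, with Mmp8 at 0 in WT, and to at most 100.2 CPM at 4 weeks. In the 4-week KO libraries m1, m3, f2 and m2 the erythroid sum was 621, 1453, 2501 and 2916 CPM. Aplnr was at 464, 457, 320 and 164 CPM in the same libraries, so the library with the lowest Aplnr had the highest erythroid sum. The part of these markers in the levels of Apln and Aplnr was not tested.

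The partners of the apelin pair were few in these cells. Apela, the second peptide ligand of Aplnr, had 0 counts in all 17 libraries, and Mme, a peptidase that cleaves apelin, was too low to be tested. Of the signalling partners, beta-arrestin 1 (Arrb1) was at a KO over WT log2 fold change of −0.43 (SE 0.22) at 4 weeks, with an unadjusted p of 0.0874. At 2 weeks the fit gave −0.99 (SE 1.35) for Arrb1 while its mean CPM was 1.42 times as high in KO as in WT, so its direction there is not settled. Beta-arrestin 2 (Arrb2) was tested at 4 weeks only among the single times, at −0.05 (SE 0.86). The inhibitory G protein subunit gene Gnai2, which serves Aplnr and Cxcr4 alike, was at 0.05 (SE 0.12) and 0.20 (SE 0.14) at 2 and 4 weeks. Thus 0 of the 2 partners tested at 2 weeks and 0 of 3 at 4 weeks passed the adjusted or the unadjusted threshold between genotypes.

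Cxcr4 encodes the receptor of the chemokine Cxcl12, which marrow stroma and endothelium make and which holds blood stem cells in the marrow. It lies at chr1:128588199-128592293, minus strand, and was the lowest of the 6 genes per kilobase in each group. At 2 weeks it was at 0, 0.98, 2.82 and 0.50 CPM in WT f1, f4, m2 and m3 and at 1.05, 0, 5.82 and 1.24 in KO. These levels rest on at most 92 counts per WT library and 173 per KO library. At 4 weeks the WT libraries f, f3, m1, m2 and m3 were at 3.17, 3.23, 7.09, 0.48 and 3.10 CPM, and KO f2, m1, m2 and m3 at 4.15, 5.56, 2.50 and 4.74. The genotypes overlapped at both times, and the highest 2-week value was in KO m2, 1 of the 2 libraries with high neutrophil markers. The other of these, KO m3, was at 1.24 CPM, below the 2.82 of WT m2. The part of neutrophil transcripts in Cxcr4 was not tested. The log2 fold changes were 0.60 (SE 1.76) at 2 weeks and 0.32 (SE 0.74) at 4 weeks, so a change of either sign was within the error.

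The ligand Cxcl12 was at 1247 ± 260 CPM (SD, n = 4) in WT and 962 ± 122 (SD, n = 4) in KO at 2 weeks, and at 1956 ± 798 (SD, n = 5) and 1569 ± 879 (SD, n = 4) at 4 weeks. Its log2 fold changes were −0.38 (SE 0.18) and −0.43 (SE 0.41), with unadjusted p of 0.0737 and 0.322. Ackr3, the receptor that scavenges Cxcl12, was at 0.07 (SE 1.07) and −0.18 (SE 0.22). Mif, a cytokine that also binds Cxcr4, was at 0.29 (SE 0.24) and 0.31 (SE 0.16), and for its mean effect of 0.33 the unadjusted p was 0.0230 and the edgeR adjusted p 0.369. Cd74, the other receptor of Mif, was at 0.67 (SE 2.19) and −0.23 (SE 0.46), and Dpp4, a peptidase that trims Cxcl12, was too low to be tested. With Gnai2, 0 of 5 tested partners passed the adjusted or the unadjusted threshold at either time.

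Esm1 encodes endocan, a proteoglycan secreted by endothelium and one of the genes most used to mark tip cells. It lies at chr13:113209659-113218098, plus strand, and Gzmk runs over it on the other strand without sharing exon bases. At 2 weeks Esm1 was at 35.4, 18.4, 0 and 13.6 CPM in WT f1, f4, m2 and m3 and at 55.8, 0.383, 8.25 and 71.9 in KO. At 4 weeks it was at 31.8, 75.4, 4.19, 42.5 and 47.8 CPM in WT f, f3, m1, m2 and m3 and at 36.7, 46.9, 22.7 and 72.9 in KO f2, m1, m2 and m3. Each group thus held both high and low libraries, and the KO range lay within the WT range at 4 weeks. The log2 fold changes of 1.28 (SE 2.22) and 0.29 (SE 0.71) were smaller than their errors. Without the 2-week KO males m2 and m3 the 2-week value was −0.01.

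Kcne3 encodes a beta subunit of voltage-gated potassium channels. It lies at chr7:100176502-100184869, plus strand, and shares exon bases with the antisense gene Gm34821, so its counts are uncertain where the counting did not use strand. It had 0 counts in 2 of 4 WT and 2 of 4 KO libraries at 2 weeks; the others were WT f4 and m3 at 3.30 and 5.73 CPM and KO m2 and m3 at 6.40 and 15.5. The 2 KO libraries with counts, 190 and 563, are those with high neutrophil markers, and without them the fitted effect was −8.82, a value that depends on the prior count because the remaining KO libraries are at 0. At 4 weeks the WT libraries f, f3, m1, m2 and m3 were at 5.81, 11.9, 9.28, 13.9 and 16.0 CPM, and KO f2, m1, m2 and m3 at 8.55, 5.71, 0 and 17.5. The 4-week KO male m2, the library with the most Eng in KO, was the only 4-week library without a Kcne3 count. At 2 weeks the fitted log2 fold change of −2.60 (SE 6.01) and the ratio of mean CPM, 2.42 in KO over WT, differed in sign, and without the sex term the fit gave 1.32. At 4 weeks it was −0.50 (SE 1.11).

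Of the channel partners, Kcnq1, the pore-forming subunit that Kcne3 associates with, was at −2.50 (SE 1.58) and −0.54 (SE 0.35) on the log2 scale, with unadjusted p of 0.158 and 0.159. Kcne4, a sister subunit, had 0 counts in all 2-week libraries and was at 7.23 ± 3.65 CPM (SD, n = 5) in WT and 4.30 ± 0.94 (SD, n = 4) in KO at 4 weeks. Its 4-week log2 fold change was −0.71 (SE 0.50). Kcne1, Kcne2 and Kcnc4 were too low to be tested at either time. None of the 1 partner tested at 2 weeks and the 2 tested at 4 weeks passed a threshold between genotypes.

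Trp53i11, named for its induction by p53, encodes a membrane protein and was, with Aplnr, 1 of the 2 genes of the 6 with the highest level per kilobase in every group. It lies at chr2:93187548-93201759, plus strand, with no overlapping gene. At 2 weeks it was at 371, 301, 330 and 216 CPM in WT f1, f4, m2 and m3 and at 172, 85.8, 361 and 313 in KO. The 2 KO females were below every WT library, while the 2 KO males, those with high neutrophil markers, were within the WT range. At 4 weeks the values were 431, 129, 267, 358 and 224 CPM in WT f, f3, m1, m2 and m3 and 256, 360, 355 and 240 in KO f2, m1, m2 and m3, all KO values lying inside the WT range. The log2 fold changes were −0.54 (SE 0.43) at 2 weeks and 0.11 (SE 0.31) at 4 weeks, with unadjusted p of 0.251 and 0.732. Without the 2-week KO males the 2-week effect was −1.43, with an unadjusted p of 0.0192 and an edgeR adjusted p of 0.839, in a fit that left KO with females alone. The part of neutrophil transcripts in this was not tested.

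**Figure D3:**
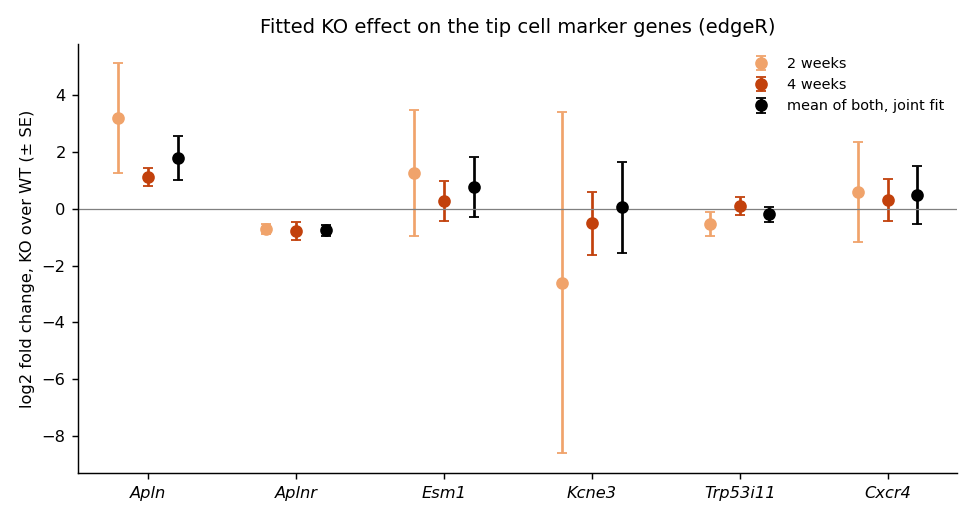
Fitted log2 fold change of KO over WT (vertical axis, with SE) for the 6 genes at 2 weeks, at 4 weeks and as the mean of both in the fit of 17 libraries. The bars of Aplnr lie below 0 (−0.70, −0.77 and −0.74) and those of Apln above 0 (3.20, 1.13 and 1.80), whereas the Kcne3 bar at 2 weeks (−2.60, SE 6.01) spans both signs.

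As counts per kilobase of exon, scaled to the library total (RPKM), the order of the 6 genes was alike across groups. Aplnr was at 93.7 ± 25.3 (SD, n = 4) in WT at 2 weeks and 162 ± 39.3 (SD, n = 5) at 4 weeks, and Trp53i11 at 82.5 ± 17.8 and 76.4 ± 31.8 in the same groups. Apln and Esm1 came next, at 7.60 ± 9.49 and 8.03 ± 6.98 in WT at 2 weeks, and Kcne3 and Cxcr4 were the lowest pair in every group. In KO at 2 weeks Trp53i11 stood above Aplnr, at 63.2 ± 34.4 and 56.8 ± 5.78 (SD, n = 4), a difference within the SD. In 4-week WT libraries 98.53% of 24079 detected genes were lower than Aplnr and 58.91% lower than Cxcr4.

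Ordered by mean CPM, the groups ran KO at 4 weeks, KO at 2 weeks, WT at 4 weeks and WT at 2 weeks for Apln. The steps at either end, of 56.7 and 48.1 CPM, exceeded the larger SD of the pair, and the middle step of 27.6 CPM did not. With TMM scaling, as used in the tests, the means of the 2 times lay closer. KO was then at 143 and WT at 64.5 at 4 weeks, against 112 and 26.7 at 2 weeks. These steps were not set against an SD. The fitted log2 fold change of 4 over 2 weeks in KO was 0.15 (SE 1.09). For Aplnr the order was WT at 4 weeks, KO at 4 weeks, WT at 2 weeks and KO at 2 weeks, and the middle neighbours, KO at 4 weeks and WT at 2 weeks, differed by 4.70 CPM, far inside an SD of 142. Under other denominators these neighbours changed places. WT at 2 weeks was at 390.9 against 320.5 for KO at 4 weeks with TMM scaling. Scaled to the total without mitochondrial genes, they were at 464.5 and 379.2. For Esm1, Kcne3, Trp53i11 and Cxcr4 no neighbouring groups differed by more than the larger SD.

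Between 2 and 4 weeks, 0 of the 6 genes were called in WT or in KO, where the background was 6.92% and 6.33% of 15703 genes. The log2 fold changes of 4 over 2 weeks are read against a median over all genes of 0.42 in WT and 0.49 in KO. Apln was at 1.53 (SE 1.09) in WT and 0.15 (SE 1.09) in KO, and Aplnr at 0.45 (SE 0.27) and 0.36 (SE 0.28), the latter close to the median gene. Esm1 was at 1.11 (SE 1.41) and 0.16 (SE 1.43), Kcne3 at 1.94 (SE 2.19) and 0.68 (SE 2.33), and Cxcr4 at 1.57 (SE 1.48) and 0.92 (SE 1.51). Trp53i11 had the only negative value in WT, at −0.47 (SE 0.36), against 0.02 (SE 0.38) in KO. The 4-week values of Kcne3 in WT lay above all 2-week values, a separation found for 16.1% of genes. Among the partners, Gnai2 was called lower at 4 weeks in both genotypes, at −0.85 (SE 0.12) in WT and −0.71 (SE 0.13) in KO, with edgeR adjusted p of 6.93e-04 and 0.00493. Kcne4 was called higher, from 0 counts in every 2-week library, with edgeR adjusted p of 0.00284 in WT and 0.00431 in KO. Time and the difference in library complexity cannot be told apart, since all libraries of a time share it.

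Of 35 other genes used as tip cell markers, among them VEGF receptors, basement membrane collagens and the Notch ligand gene Dll4, 30 were tested at 2 weeks and all 35 at 4 weeks. None was called between genotypes at either time in edgeR; at an unadjusted p under 0.05, 0 were higher and 2 lower at 2 weeks, and 3 higher and 1 lower at 4 weeks. These are 6.67% and 11.4% of the genes tested, beside 2.63% and 2.77% of all genes. The medians were −0.16 and −0.05, beside −0.06 and 0.01 over all genes. At 4 weeks the 3 higher were Angpt2, the Tie2 ligand angiopoietin 2, at 1.52 (SE 0.27), Adm, the peptide adrenomedullin, at 0.88 (SE 0.20), and Pgf, placental growth factor, at 1.23 (SE 0.45). For Angpt2 and Adm the genotypes did not overlap at 4 weeks, as for 0.664% of genes in that direction, and Angpt2 had the smallest p of that comparison, at 3.98e-04 unadjusted. The lower one was the VEGF co-receptor gene Nrp1, at −0.44 (SE 0.17), followed by Igfbp3 at −0.31 (SE 0.15) and Nid2 at −0.39 (SE 0.31), which did not pass.

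At 2 weeks the 2 lower were Tnfrsf12a, the receptor of TWEAK, at −2.83 (SE 1.09), and the arterial transcription factor gene Sox17, at −0.73 (SE 0.25), with Robo4 next at −0.99 (SE 0.43) and an unadjusted p of 0.0569. In the positive direction Angpt2, Lxn and Marcksl1 had the smallest p, at 3.27 (SE 2.91), 0.63 (SE 0.64) and 2.42 (SE 2.51). Between times the KO effect differed by 2.69 (SE 0.61) for Tnfrsf12a and 0.85 (SE 0.26) for Sox17, with edgeR adjusted p of 0.187 and 0.347. At an unadjusted p under 0.05 these were the 2 higher of the list for that difference. The 3 lower were Mmp14, Pgf and Piezo2, which were not tested at 2 weeks alone. These are 14.3% of the 35 genes, beside 9.81% of all genes. Dll4 itself was at 0.40 (SE 0.58) and 0.05 (SE 0.21).

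Genes of the stalk and of quiescent endothelium, 21 in all and each tested at both times, gave 0 called in edgeR at either time. At an unadjusted p under 0.05, 0 were higher and 3 lower at 2 weeks, and 0 higher and 1 lower at 4 weeks. These are 14.3% and 4.76% of the genes tested, beside 2.63% and 2.77% of all genes, with medians of −0.47 and −0.22 beside −0.06 and 0.01 over all genes. The 3 at 2 weeks were the VEGF decoy receptor gene Flt1 at −0.69 (SE 0.13), Tie1, the orphan partner of the Tie2 receptor, at −0.81 (SE 0.31), and Id3, a target of BMP signalling, at −0.29 (SE 0.10). Tie1 was also the 1 at 4 weeks, at −0.52 (SE 0.19), followed by Id1 at −0.22 (SE 0.11) and Notch1 at −0.31 (SE 0.17). The least p among positive values belonged to Hey1, Nos3 and Ackr1 at 2 weeks, at 0.59, 0.56 and 0.72, and to Hey1, Vwf and Ackr1 at 4 weeks, at 0.35, 0.22 and 0.53, and none of these had an unadjusted p under 0.05.

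**Figure D4:**
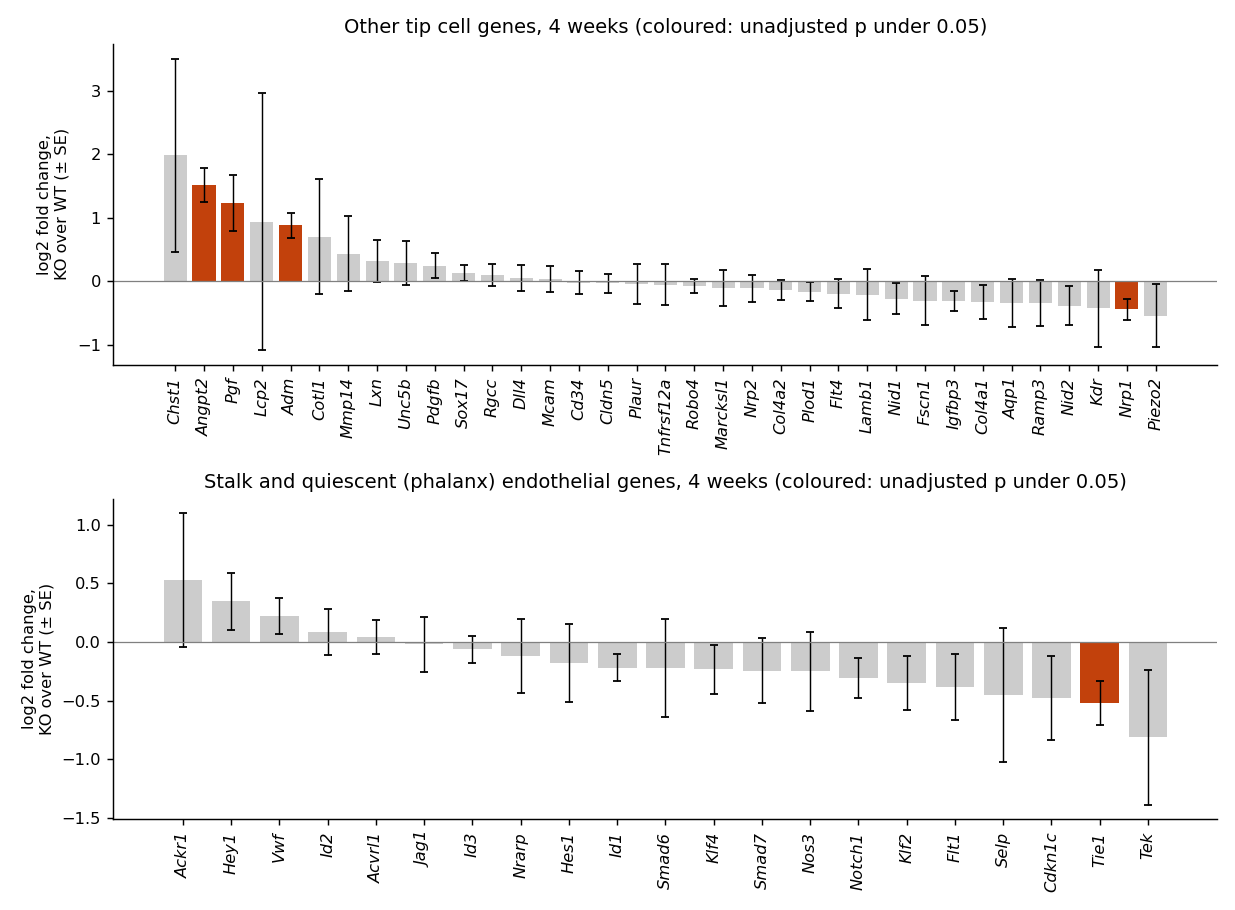
Fitted log2 fold change of KO over WT at 4 weeks (bars, with SE) for 35 other tip cell genes (top) and 21 stalk and quiescent endothelial genes (bottom), in order of value; coloured bars have an unadjusted p under 0.05. Angpt2, Pgf and Adm are coloured above 0 and Nrp1 and Tie1 below 0, and most other bars are within reach of 0 by their SE.

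The genes most like each of the 6 were taken by Pearson's r of log2 CPM over the 9 libraries at 4 weeks, among 10949 protein-coding genes. For Apln they were Dap (0.950), Commd3 (0.948) and Gmpr2 (0.947), and for Aplnr Mrgpre (0.962), Nepn (0.959) and Atxn7l3 (0.951). For Esm1 they were Dzip3 (0.969), Tedc2 (0.968) and Prpsap1 (0.963), for Trp53i11 Ogfod1 (0.949), Myh11 (0.928) and Mier1 (0.923), and for Cxcr4 Kat2b (0.971), 1190007I07Rik (0.969) and Bcl2l2 (0.966). For Kcne3 they were Cep19 (0.987), Gatm (0.982) and Tmub1 (0.979), whose r within the 5 WT libraries was 0.573, 0.413 and 0.326; the KO male m2 at 0 counts is not among those. Both genes of a pair were read in the same 9 libraries, which span 2 genotypes and unequal depths, and none of the 6 genes was named as most like another. By Spearman's rho, 1 of the 3 was named again for Apln, Aplnr, Esm1 and Trp53i11 and 0 for Kcne3 and Cxcr4. Within WT libraries alone 0 of 3 were named again for each of the 6.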

How the data were processed

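The files deposited by the authors hold raw read counts per gene, whole numbers, 1 table for each of 17 libraries. Per the submitters' processing notes, cutadapt, STAR and HTSeq 0.6.1p1 were used with GRCm38 (mm10); their settings, annotation and use of strand are not given in the sources used here. Per the labels' protocols, the sort kept CD31+ Sca1+ cells that lacked CD45 and Ter119, and SmartSeq2 was run, which has no molecular identifiers, so counts are of amplified fragments; the design text gives the gate without Sca1. No 2 libraries of a group were alike within sampling noise (lowest chi-square per degree of freedom 47.1).

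Identifiers were matched to GENCODE M21 on GRCm38 (49326 of 49585; 259 unmatched), which gave symbols, positions and exon lengths. Genes were tested with edgeR 4.0.16 in R 4.3.3 (filterByExpr, TMM, robust quasi-likelihood F test, sex as a term), at each time alone and, with a mean per group, over all 17 libraries. P-values were adjusted by Benjamini-Hochberg across every gene in a fit and called under 0.05; an unadjusted p under 0.05 is given where named. The SE was derived from the F statistic. CPM uses the library total, and log2 CPM a prior count of 2. DESeq2 1.42.0, other scalings, filters and terms, a replicate block and the omission of libraries were alternatives. The script was tested on simulated data.

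The 6 genes and all lists were chosen with earlier results of these data known. Named were the 6 genes, Eng, marker lists and every partner gene, of which some are not reported here; from the other tip cell list and the stalk list, the 3 genes with the smallest p in each direction at each time; and, for each of the 6 genes, the 3 protein-coding genes of highest Pearson r with a mean count of at least 50. Sox17, Tnfrsf12a, Mmp14, Pgf, Piezo2 and Dll4 in further comparisons were named after their values were seen.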

Additional observations from a re-analysis of the deposited data

How the results depend on the processing

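The directions of the KO effects on Apln and Aplnr at 2 weeks, at 4 weeks and as a mean were kept under every alternative that gave a value, and edgeR called none of the 6 genes under any of them. DESeq2 called 1 of the 6 (Aplnr) at 2 weeks and 1 (Aplnr) for the mean effect. Genes called by DESeq2 numbered 149 at 2 weeks, 17 at 4 weeks, 1396 for the mean effect, 1303 for the difference between times, and 2938 and 2873 for time in WT and KO, against 0, 0, 13, 12, 1086 and 994 in edgeR. For the last 4 of these, edgeR without a low-count filter called 8, 6, 580 and 567 genes, and with at least 10 counts in every library 3, 0, 639 and 626. That stricter filter removed Apln, Esm1, Kcne3 and Cxcr4 at 2 weeks and over all libraries, and Kcne3 at 4 weeks. Leaving out 1 library at a time gave 5 to 60 genes for the mean effect, 7 to 51 for the difference, 588 to 1261 for time in WT and 504 to 1222 in KO. Without both 2-week KO males m2 and m3 the mean effect had 289 called genes and the difference 251; the cause was not tested.

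A replicate block in place of the sex term gave 0 genes for the mean effect and 0 for the difference, and a Kcne3 effect of 1.13 at 2 weeks. At 4 weeks all females formed a single block, since their labels differ between genotypes. Deviations of same-labelled WT and KO libraries correlated at 0.05, −0.02, −0.02 and 0.02 at 2 weeks and at 0.05, 0.06 and 0.16 at 4 weeks. Not every library correlated best with its own number, though the m3 pair had the highest value at 4 weeks. These correlations do not decide whether equal numbers pair the samples, because a small shared part would be hidden by the spread of single libraries. The block was not run for time, where each block lies within 1 time.

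Signs of log2 fold changes were not stable for genes near their error. At 2 weeks Esm1 was −0.010 without both KO males, Kcne3 was 1.32 without the sex term and −6.24 to 1.56 with 1 library left out and −8.82 without both KO males, and Cxcr4 ranged from −0.36 to 2.41 with 1 library left out. At 4 weeks such omissions gave −0.13 to 0.62 for Esm1, −0.023 to 0.37 for Trp53i11 and −0.010 to 0.96 for Cxcr4. For the mean effect they gave −0.63 to 0.51 for Kcne3 and −0.037 to 0.93 for Cxcr4, and without both KO males −4.78 and −0.22. For the difference between times they gave −0.28 to 0.15 for Aplnr, −1.48 to 0.29 for Esm1, −2.10 to 0.14 for Kcne3 and −1.43 to 0.51 for Cxcr4. Without both KO males the difference was 0.045 for Esm1, 8.54 for Kcne3 and 0.91 for Cxcr4. For time in KO they gave −0.48 to 0.57 for Apln, −0.25 to 1.55 for Esm1 and −0.24 to 0.28 for Trp53i11. There, Apln was −0.48 without both KO males and Trp53i11 −0.055 with upper quartile scaling. At 2 weeks Kcne3 had 0 to 563 counts per library. Of 48 group means recomputed with another denominator, 4 moved by more than 1 SD: Aplnr in WT at 2 weeks to 464.5 CPM and in KO to 238 and 285 CPM, and Trp53i11 in WT at 2 weeks to 406 CPM.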
